A study of Mus musculus with 12 samples.

Results

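Mgp encodes matrix Gla protein, a small secreted protein that keeps soft tissue from calcifying, and it is described here with 7 other genes that hold back or promote mineral deposition: Spp1, Enpp1, Ank, Alpl, Ibsp, Runx2 and Sp7. The 8 rows were taken by gene symbol from a table of 24132 symbols, and all 8 were found. They were selected on earlier results of the same libraries, their RPKM differences between the genotypes, so their levels and differences are given as a description and no test of them is reported.

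Polyadenylated RNA was measured in fibroblasts grown from the tail tips of neonatal mice, backcrossed to C57BL6. The cells had wild-type Hotair, were heterozygous for its disruption, or were Hotair knockout, with 2 libraries for each of the 3 genotypes and no other treatment named. Hotair is a long noncoding RNA of the HoxC cluster, and the series asks how its loss changes expression. The labels do not say whether the 2 libraries of a genotype came from separate animals or cultures, so a p-value here reflects how far libraries of one genotype differ, and that spread may be technical only. The ChIP-seq samples of the series (6) are not analysed here.

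Mineral forms where phosphate and calcium are plentiful and its inhibitors are scarce. Inorganic pyrophosphate outside the cell blocks crystal growth: the enzyme Enpp1 makes it from nucleotides, the membrane protein Ank takes part in its export, and the tissue-nonspecific alkaline phosphatase encoded by Alpl splits it into phosphate. Mgp, which works only after vitamin K dependent carboxylation and also binds bone morphogenetic proteins, is a second brake, and osteopontin (Spp1), an acidic phosphoprotein that coats crystals, a further one. Bone sialoprotein (Ibsp) belongs to the same acidic family (SIBLING) as osteopontin and promotes the first crystals, and the transcription factors Runx2 and Sp7 (osterix) commit cells to the osteoblast fate.

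Depth was recovered from the values, with 37 bases of coverage taken as 1 read, and ranged from 27.9M to 33.2M read equivalents in the wild-type and heterozygous libraries and from 46.0M to 48.1M in the knockout libraries. Hotair stood at 0.247 and 0.183 RPKM (reads per kilobase of gene, scaled to the depth of the library) in wild type and at 0.213 and 0.172 RPKM in heterozygous cells, and it was listed at 0 in both knockout libraries. Xist, the RNA of the inactive X chromosome, was at 4.65 and 4.46 RPKM in the heterozygous libraries and at most 0.0479 RPKM in the other 4, while the Y-linked Kdm5d was between 1.17 and 2.18 RPKM in wild type and knockout and at most 0.0109 RPKM in the heterozygous libraries. Heterozygosity and the sex of the cells therefore cannot be told apart in any comparison that uses the heterozygous libraries. The summed level of 10 fibroblast markers was high throughout, between 5456 and 5879 RPKM and led by Vim, whereas 6 endothelial and 6 keratinocyte markers each summed to less than 1 RPKM (at most 0.255 and 0.866). Single fibroblast markers did differ between genotypes, and 9 of the 10 passed the 1 RPKM filter described below. In knockout against wild type limma called 3 of these 9 higher and 5 lower, against 40.6% and 26.6% of all genes tested.

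Mgp showed a graded pattern. Its wild-type libraries gave 6.71 and 7.48 RPKM, against 26.3 and 29.9 RPKM in the heterozygous libraries and 85.7 and 82.2 RPKM in the knockout libraries. Every knockout library lay above every heterozygous library, and every heterozygous library above every wild-type one. The group means were 7.09 ± 0.543, 28.1 ± 2.53 and 83.9 ± 2.47 RPKM (SD, n = 2 each), a ratio to wild type of 3.96 in heterozygous and 11.8 in knockout cells. By level Mgp ranked 5095th among all rows in wild type and 485th in knockout. On the log2(RPKM + 1) scale, which understates the change of low genes, the knockout mean lay 3.39 ± 0.07 (SE of the model) above wild type, and the heterozygous mean 1.85 ± 0.07 above it. These levels rested on 120 and 126 read equivalents in wild type and on 2482 and 2280 in knockout. In bulk RNA, fewer cells that make a transcript and less of it per cell cannot be told apart, for Mgp or any gene below.

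The osteopontin gene Spp1 was the most abundant of the 8 per length in every library. Its RPKM was 264 and 262 in wild type, 317 and 330 RPKM in heterozygous and 579 and 576 RPKM in knockout cells. The 3 groups did not overlap, and most of the difference lay between heterozygous and knockout cells: the heterozygous mean had covered 26.4% of the log2 difference from wild type to knockout, against 54.4% for Mgp. The knockout mean was 2.20 times and the heterozygous mean 1.23 times the wild-type mean. The log2 difference from wild type was 1.13 ± 0.02 in knockout and 0.30 ± 0.02 in heterozygous cells. Because Mgp differed more, the Spp1 level was 39.3 and 35.0 times that of Mgp in the wild-type libraries and 6.76 and 7.01 times in the knockout libraries.

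Ibsp was barely present, which separates it from Spp1 although both are SIBLING genes. It was listed at 0 in both wild-type libraries and in 1 heterozygous library, and 1 read equivalent was counted in the other heterozygous library and in each knockout library. These counts lie at or under the level that 3 reads in a group would give (0.0266 RPKM in wild type and 0.0163 RPKM in knockout), so no difference was detectable at this depth. Of the other SIBLING genes, Dspp and Mepe were listed at 0 in all 6 libraries, and Dmp1 did not exceed 0.013 RPKM.

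**Figure D1:**
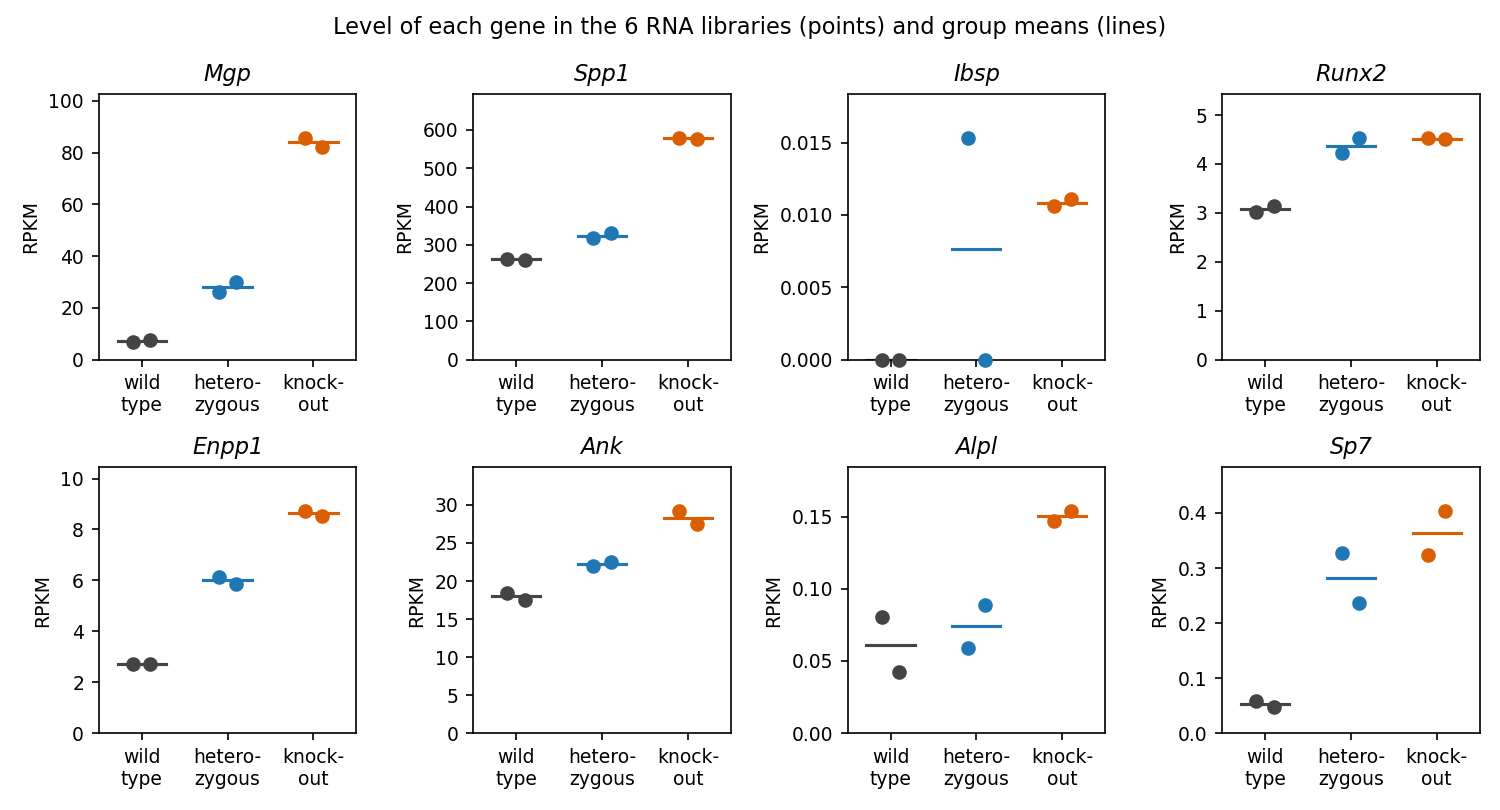
RPKM of each of the 8 genes (vertical axes from 0, a scale of its own per panel) in the wild-type, heterozygous and knockout libraries. Points are the 2 libraries of a genotype and lines their mean. Mgp, Spp1, Enpp1 and Ank lie at 3 levels without overlap, Runx2 differs between wild type and the other 2 genotypes, and Ibsp, Alpl and Sp7 stay below 0.5 RPKM.

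Of the genes that set extracellular pyrophosphate, Enpp1 and Ank were higher with each step in genotype. Enpp1 stood at 2.71 and 2.71 RPKM in wild type, 6.14 and 5.85 RPKM in heterozygous and 8.71 and 8.54 RPKM in knockout cells. The groups did not overlap, and the knockout and heterozygous means were 3.19 and 2.22 times that of wild type. Its log2 difference between knockout and wild type was 1.38 ± 0.04, and 0.82 with a pseudocount of 5, where it no longer reached 2-fold.

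Ank stood at 18.4 and 17.6 RPKM in wild type, 22.0 and 22.5 RPKM in heterozygous and 29.2 and 27.5 RPKM in knockout cells, again without overlap. Its knockout mean was 1.57 times the wild-type mean, a smaller ratio than that of Enpp1. The Ank level was therefore 6.80 and 6.49 times that of Enpp1 in the wild-type libraries and 3.35 and 3.22 times in the knockout libraries.

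Alpl, whose product removes pyrophosphate, was close to the limit of detection. It stood at 0.0802 and 0.0426 RPKM in wild type, 0.0592 and 0.0889 RPKM in heterozygous and 0.147 and 0.154 RPKM in knockout cells. Wild-type and heterozygous libraries overlapped, and both knockout libraries lay above the other 4. The groups held 9, 12 and 36 read equivalents in all, with exact 95% Poisson intervals of 4.12 to 17.1, 6.20 to 21.0 and 25.2 to 49.8 that cover counting error only, and the knockout group was sequenced 1.64 times as deeply as wild type. In every library Alpl was lower than Enpp1 per length, by a factor between 33.8 and 104.

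The 2 osteoblast transcription factors differed in level. Runx2 stood at 3.02 and 3.14 RPKM in wild type, 4.22 and 4.53 RPKM in heterozygous and 4.53 and 4.51 RPKM in knockout cells. Both other genotypes lay above wild type and overlapped each other. The heterozygous mean had covered 91.2% of the log2 difference from wild type to knockout. That difference was 0.44 ± 0.05, and 0.28 after quantile normalization.

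Sp7, which acts after Runx2 in osteoblast development, was low in all libraries. It stood at 0.0587 and 0.0471 RPKM in wild type, 0.328 and 0.236 RPKM in heterozygous and 0.325 and 0.403 RPKM in knockout cells. Both other genotypes lay above wild type and overlapped each other, as for Runx2. The groups held 7, 42 and 78 read equivalents (exact 95% Poisson intervals of 2.81 to 14.4, 30.3 to 56.8 and 61.7 to 97.3), and the knockout mean was 6.88 times and the heterozygous mean 5.33 times the wild-type mean, a ratio that rests on the 7 wild-type reads. Its neighbours among protein-coding genes in RefSeq order were higher than Sp7 in every library: Aaas, of the nuclear pore, stood between 25.8 and 30.3 RPKM, and Sp1, a widely expressed factor of the same family, between 5.99 and 8.04 RPKM. In knockout against wild type Aaas was not called by limma. Sp1 was called higher (log2 difference 0.34 ± 0.04), as were 40.6% of all genes tested.

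A filter of at least 1 RPKM in 2 or more of the 6 libraries was passed by 5 of the 8 genes (Mgp, Spp1, Enpp1, Ank and Runx2), each of which exceeded 2 RPKM in every library, and not by Alpl, Ibsp and Sp7. In knockout against wild type, 3 of these 5 (Mgp, Enpp1 and Spp1) had means at least 1 apart on the log2(RPKM + 1) scale (2-fold on that scale) without overlap, all higher in knockout, and 1.84% of the 10897 genes tested were higher by that rule (2.56% in either direction). Of the 5, Mgp met the rule in heterozygous against wild type (0.78% of genes higher, 1.2% in either direction) and in knockout against heterozygous (0.486% higher, 0.743% in either direction). Enpp1, at 2.22 times wild type in RPKM, was 0.92 apart on that scale in heterozygous cells and 1.12 apart with a pseudocount of 0.1. Groups lay apart without overlap, whatever the size, for all 5 in both comparisons with wild type and for 4 of 5 in knockout against heterozygous, and so did 49.3% (knockout) and 50.4% (heterozygous) of all genes as higher than wild type and 39.2% as higher in knockout than in heterozygous cells. Since the genes were chosen with these values known, nothing is read from the counts. The comparisons share libraries, so they do not add to each other.

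**Figure D2:**
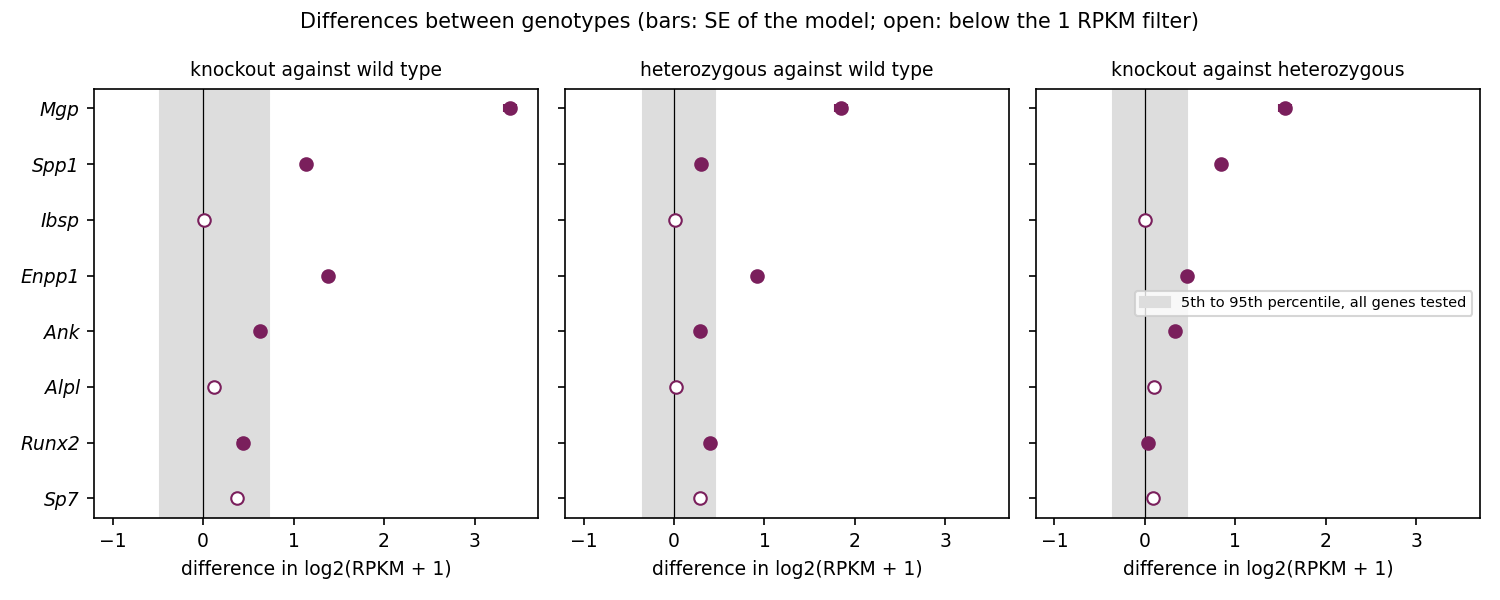
Difference in log2(RPKM + 1) for the 8 genes (rows) in the 3 comparisons (panels). Filled points passed the 1 RPKM filter and carry the SE of the model, open points did not pass, and the grey band spans the 5th to the 95th percentile of the 10897 genes tested. Mgp lies outside the band in each panel, at 3.39, 1.85 and 1.55.

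Promoter sequences of 6 of the 8 genes were matched by symbol in RefSeq (build GRCm38.p6), each from 250 bases before to 50 bases after a transcription start. No promoter is shown for Mgp and Sp7. The 3 below are shown because they hold TGTGGT, the core that RUNX factors bind, on either strand, and because Runx2 is itself one of the genes described. Capitals mark every match, on either strand, to the RUNX core, the GC box GGGCGG, the AP-1 site TGANTCA, the E-box CAGCTG, the other E-box searched, CACGTG, or the TATA box with letters TATAAA, and all are written 5′ to 3′ on the strand of the gene.
Spp1, chr5:104434861-104435160, plus strand: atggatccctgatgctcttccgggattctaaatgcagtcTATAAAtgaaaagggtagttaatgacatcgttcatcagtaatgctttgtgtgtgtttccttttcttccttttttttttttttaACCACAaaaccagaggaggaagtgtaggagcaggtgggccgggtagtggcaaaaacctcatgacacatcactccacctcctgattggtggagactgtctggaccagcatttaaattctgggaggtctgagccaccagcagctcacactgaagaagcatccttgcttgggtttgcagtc
Enpp1, chr10:24712110-24712409, minus strand: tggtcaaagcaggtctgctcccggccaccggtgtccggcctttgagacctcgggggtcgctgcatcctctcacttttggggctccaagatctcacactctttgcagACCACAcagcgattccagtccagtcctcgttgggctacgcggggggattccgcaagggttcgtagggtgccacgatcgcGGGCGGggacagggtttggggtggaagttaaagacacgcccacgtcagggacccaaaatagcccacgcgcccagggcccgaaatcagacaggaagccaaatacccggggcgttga
Runx2, chr17:44814578-44814877, minus strand: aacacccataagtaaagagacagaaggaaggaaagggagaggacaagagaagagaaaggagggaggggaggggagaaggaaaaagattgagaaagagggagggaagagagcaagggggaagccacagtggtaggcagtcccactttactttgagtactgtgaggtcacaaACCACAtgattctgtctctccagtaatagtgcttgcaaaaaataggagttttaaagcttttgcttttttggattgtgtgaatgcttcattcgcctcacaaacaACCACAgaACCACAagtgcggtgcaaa
The RUNX core was present once in the Spp1 and Enpp1 windows and 3 times in the Runx2 window, in each case as ACCACA on the strand shown. The core was also held by 16.8% of all 32851 promoter entries of this length. The windows of Ank, Alpl and Ibsp did not hold these letters, nor did the other window listed for Spp1. GGGCGG was found in the windows of Enpp1 and Ank and in 1 of the 2 windows of Alpl, against 35.7% of all entries. The TATA box letters, held by 13.6% of all entries, were found in the Spp1 window shown (position -211 from the start), in 1 Alpl window (-192) and in the Ibsp window (-28), the last 2 on the opposite strand, and none of the 3 windows shown held the AP-1 site (7.81% of entries) or either E-box (16.3% for CAGCTG and 7.15% for CACGTG). A match is a description of the letters and not evidence of binding.

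Genes that act with these 8 were counted from 7 lists (82 symbols in the table, none of them among the 8), with limma over all 10897 genes and Benjamini-Hochberg adjustment. Of the 51 that passed the filter, 30 rose, 13 fell and 8 were not called in knockout against wild type. Over all genes tested, 40.6% were called higher and 26.6% lower, 67.2% in all, so a call by itself is common. The share called was 52.6% in heterozygous against wild type and 51.8% in knockout against heterozygous. The median log2 difference was 0.24 for the lists and 0.06 for all genes. Since the lists were chosen with earlier results of these data known, nothing is read from the list counts or this contrast. The balance over all genes depended on scaling: 60.4% of calls were higher as deposited, 46.7% after quantile normalization and 47.2% after median scaling, where the lists gave 25 and 27 genes higher and 15 and 13 lower.

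Phosphate transporters split by direction. Slc20a1 and Slc20a2, which import phosphate, fell from 25.3 ± 0.765 to 17.5 ± 0.194 RPKM and from 18.1 ± 0.0838 to 9.76 ± 0.133 RPKM (SD, n = 2; limma adjusted p = 1.09e-05 and 1.10e-06). Xpr1, which exports phosphate, rose from 3.10 ± 0.065 to 5.47 ± 0.0262 RPKM. Ppa1, a pyrophosphatase inside the cell, fell from 35.3 ± 1.61 to 26.4 ± 1.52 RPKM. In heterozygous cells Slc20a1, Slc20a2 and Xpr1 lay between the other genotypes, at 20.7, 13.5 and 4.33 RPKM. Of the 6 measured genes of this list, 1 rose and 4 fell, with a median log2 difference of -0.33, and Phospho1, a phosphatase of matrix vesicles, was not called (2.18 ± 0.438 and 2.17 ± 0.125 RPKM).

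Vitamin K dependent carboxylation activates Mgp. Ggcx, the carboxylase, fell from 11.6 ± 0.481 to 9.36 ± 0.281 RPKM (limma adjusted p = 0.000694), and Calu, which restrains that enzyme, rose from 122 ± 0.189 to 150 ± 0.846 RPKM. Vkorc1, which recycles vitamin K, rose from 31.8 ± 1.55 to 38.1 ± 0.60 RPKM. The other carboxylated proteins Gas6 and Pros1 rose by log2 differences of 0.52 ± 0.03 and 0.55 ± 0.04. Together 4 of the 6 measured genes rose and 1 fell, and all of these changes were smaller than 2-fold. The osteocalcin genes Bglap and Bglap2 did not exceed 0.122 RPKM in any library and were listed at 0 in both knockout libraries.

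**Figure D3:**
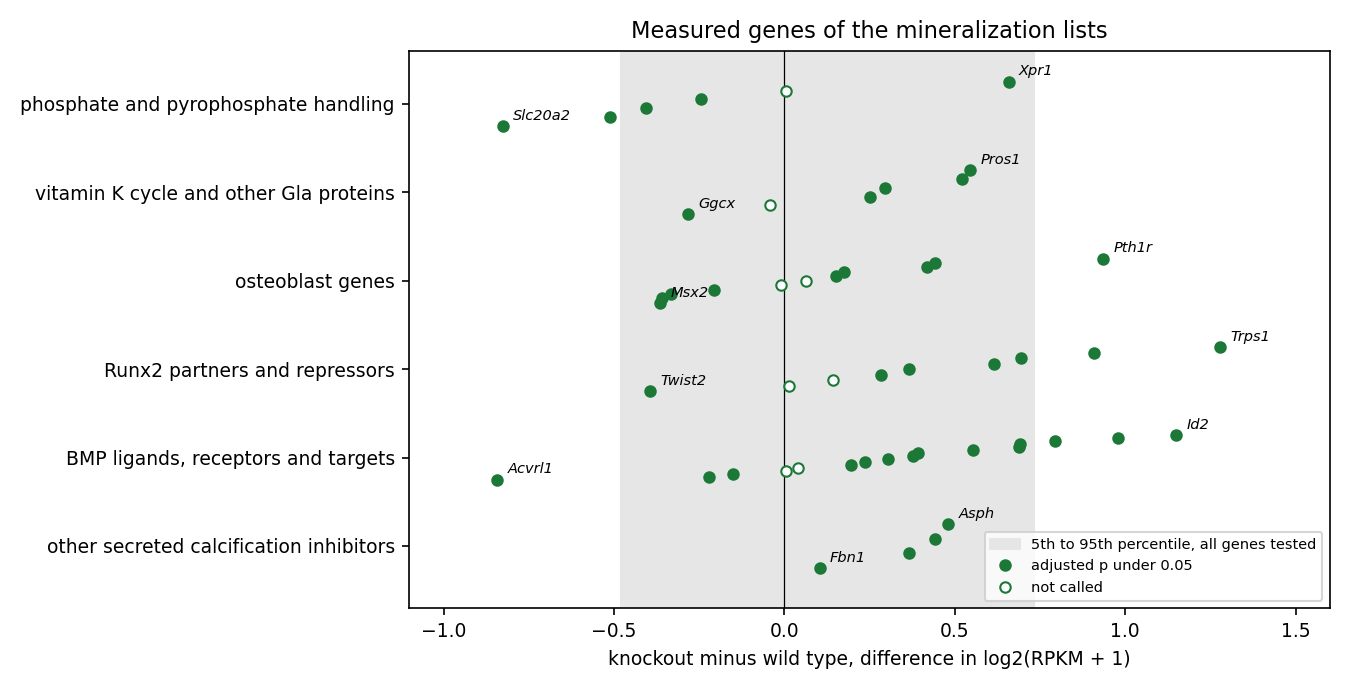
Knockout minus wild type difference in log2(RPKM + 1) for each measured gene of 6 lists (rows, one point per gene, with the lowest and highest gene of each list named). Filled points were called by limma and the grey band spans the 5th to the 95th percentile of all genes tested. Slc20a2 and Acvrl1 lie furthest to the left (-0.83 and -0.84), and Trps1 and Id2 furthest to the right (1.28 and 1.15).

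Among partners and repressors of Runx2, 6 of 9 measured genes rose and 1 fell (median log2 difference 0.37). Trps1, a GATA-type repressor under 1 RPKM in wild type, rose from 0.846 ± 0.0387 to 3.47 ± 0.0949 RPKM, with 2.02 ± 0.0516 RPKM in heterozygous cells (SD, n = 2). It passed the filter through heterozygous and knockout libraries alone. Zfp521, a zinc finger antagonist of Runx2, rose from 1.04 ± 0.0269 to 2.84 ± 0.0848 RPKM, and Twist1, another inhibitor, from 12.3 ± 0.743 to 20.6 ± 0.53 RPKM. Foxo1 rose by 0.61 ± 0.06 on the log2 scale. Twist2, closely related to Twist1, was the gene that fell (from 19.0 ± 0.0725 to 14.2 ± 0.197 RPKM), after standing at 25.1 ± 0.0197 RPKM in heterozygous cells.

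Bone morphogenetic proteins, which Mgp can bind, drive Id genes through their receptors. Of 16 measured genes of this pathway 11 rose and 3 fell, with a median log2 difference of 0.34, and 8 rose after quantile normalization. Id2 rose from 2.67 ± 0.239 to 7.14 ± 0.27 RPKM, while Id3 fell from 122 ± 3.86 to 104 ± 1.22 RPKM. The ligand gene Bmp4 rose from 0.25 ± 0.0261 to 1.46 ± 0.156 RPKM, with 1.71 ± 0.0394 RPKM in heterozygous cells, and it passed the filter through these 2 genotypes alone. The receptor gene Bmpr1a rose by 0.79 ± 0.04, and Acvrl1, a receptor best known from vessels, fell by 0.84 on the log2 scale (SE 0.04).

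Osteoblast genes went in both directions: 5 of 11 measured genes rose and 4 fell, with a median log2 difference of 0.06, as for all genes to 2 decimals, and 3 rose and 6 fell after quantile normalization. Pth1r, the parathyroid hormone receptor, passed the filter through heterozygous and knockout libraries alone and rose from 0.604 ± 0.0689 to 2.07 ± 0.0402 RPKM. Msx2, a homeobox gene of skull and tooth, fell from 3.86 ± 0.323 to 2.77 ± 0.225 RPKM. The collagen chain genes Col1a1 and Col1a2 fell by 0.21 and 0.33 on the log2 scale. Tnfrsf11b, the decoy receptor that limits osteoclasts, passed the filter through the knockout libraries alone, so it was tested because it is high there, and it rose from 0.498 ± 0.0804 to 1.03 ± 0.0261 RPKM, and that call was lost after quantile normalization (log2 difference 0.13, against 0.44 ± 0.06).

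A last list held 10 genes listed as calcification inhibitors, some of them also in the osteoblast list, and 4 passed the filter. Asph, Ltbp4 and Fbn1 rose by 0.48, 0.37 and 0.10 on the log2 scale, and the fourth is Tnfrsf11b, which passed through knockout alone. These 3 are not inhibitors in the manner of Mgp: Asph is a membrane-bound enzyme that hydroxylates protein domains, and Ltbp4 and Fbn1 build elastic fibres. The call of Fbn1 was lost after median scaling (0.02). The circulating inhibitor genes Ahsg and Fgf23 were listed at 0 in all 6 libraries.

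Markers of other cells that make Mgp or Spp1 moved with genotype as well. Macrophages and osteoclasts make osteopontin: the summed level of 14 macrophage markers was 9.10 to 10.4 RPKM in wild type, 7.67 to 8.49 RPKM in heterozygous and 55.4 to 55.8 RPKM in knockout libraries, and 13 of the 14 exceeded all other 4 libraries in each knockout library. Of the 14, 7 passed the filter. Among all genes tested, 49.3% were higher without overlap in knockout than in wild type, and 39.2% higher than in heterozygous cells. The share above both groups at once was not counted, for these or the markers below. For 11 osteoclast markers the sums were 35.0 to 35.7, 24.5 to 27.3 and 61.3 to 61.3 RPKM, with 8 of 11 higher in both knockout libraries. The direction was not shared by the whole list: the protease gene Ctsk, its highest by mean level, fell from 19.3 and 19.2 RPKM in the wild-type to 11.4 and 10.6 RPKM in the knockout libraries and the integrin gene Itgb3 from 10.2 ± 0.151 to 4.68 ± 0.184 RPKM (SD, n = 2; called by limma), while Acp5, the tartrate-resistant phosphatase, went from 0.695 ± 0.0302 to 23.6 ± 0.448 RPKM and passed the filter through knockout alone. Both sums were lower in heterozygous than in wild-type libraries, which also differ in sex. Mgp, Spp1, Enpp1 and Ank were higher in heterozygous than in wild-type libraries. The part of macrophages and osteoclasts in the levels of these genes was not tested.

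Cartilage cells make Mgp: 13 cartilage markers, led by Sox9, summed to 6.02 to 6.17 RPKM in wild-type libraries. Their sums were 12.2 to 12.8 RPKM in heterozygous and 12.7 to 13.1 RPKM in knockout libraries. Of the 13, 4 passed the filter. In knockout against wild type limma called 3 of these 4 higher and 0 lower, against 40.6% and 26.6% of all genes tested. Of the 3, Hapln1 and Col10a1 were under 1 RPKM in wild type and passed the filter through the other genotypes alone. In knockout against heterozygous all 4 were not called, where 51.8% of all genes were. Col2a1, the defining collagen, lay under the filter and did not exceed 0.457 RPKM. It was nonetheless graded by genotype: its wild-type mean was 0.0613, its heterozygous mean 0.174 and its knockout mean 0.424 RPKM. The whole list did not share this grading: 5 of the 13 markers exceeded the other 4 libraries in each knockout library. Sox9 had its highest mean in heterozygous cells (3.41 RPKM in wild type, 6.08 RPKM in heterozygous and 5.75 RPKM in knockout). Tendon markers (5 genes) summed to 10.5 to 11.6, 26.5 to 26.8 and 97.5 to 101 RPKM, with Thbs4 the highest, and all 5 exceeded the other 4 libraries in each knockout library. Without overlap, 49.3% of all genes tested were higher in knockout than in wild type, and 39.2% higher than in heterozygous cells. The sum of 8 smooth muscle markers, of another cell type that makes Mgp, was lower in both other genotypes than in wild type, at 2002 to 2026 and 2188 to 2203 RPKM against 3532 to 3537 RPKM, and it was carried mostly by Acta2 and Tagln. In wild type the means of the other markers lay between 0.0714 RPKM (Myocd) and 162 RPKM (Cnn1), so the sum does not measure an amount of smooth muscle cells. In knockout against wild type 6 of the 7 measured fell and 1 rose, Des, which encodes the filament protein desmin (1.14 ± 0.13 to 3.01 ± 0.29 RPKM). Over all genes tested, limma called 26.6% lower and 40.6% higher. Of 8 osteoblast and osteocyte markers, 1 passed the filter (Pth1r), and the list summed to at most 2.33 RPKM. The part of these cell types in the Mgp levels was not tested.

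**Figure D4:**
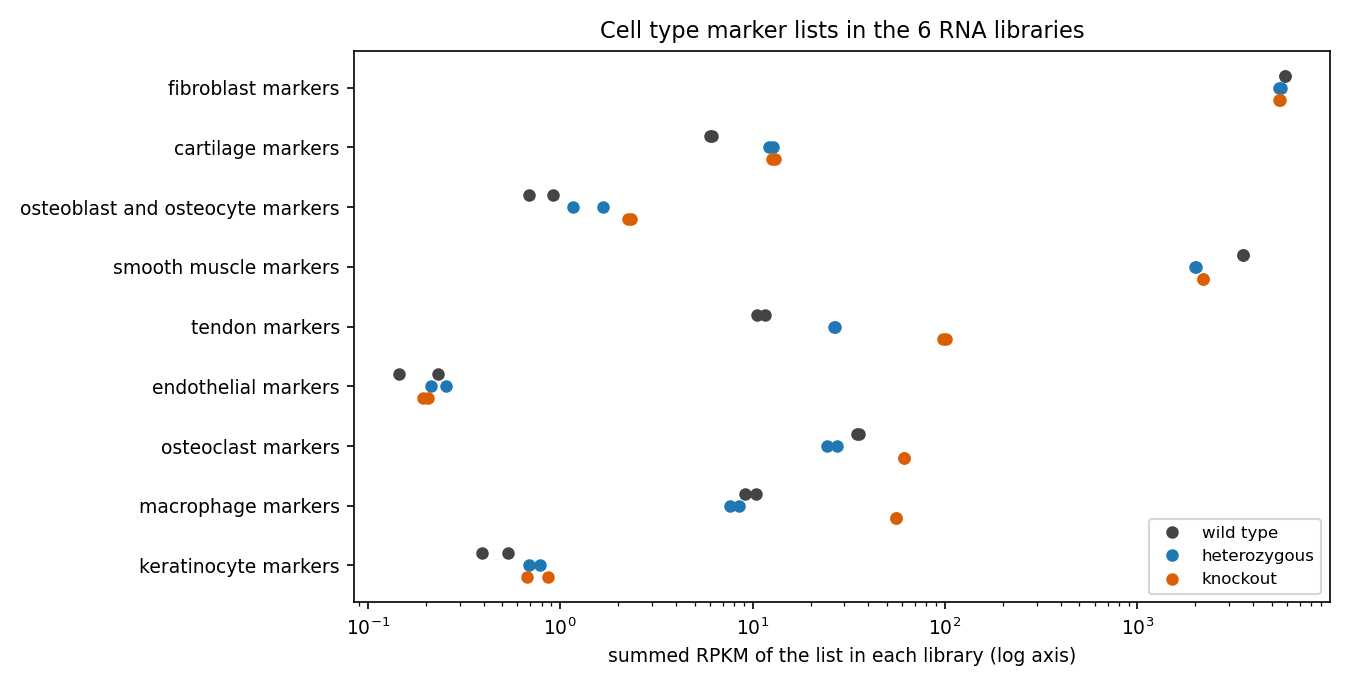
Summed RPKM of each marker list in each library (log axis, 1 point per library, coloured by genotype). Macrophage and osteoclast sums are highest in knockout and lowest in heterozygous libraries, and tendon sums climb from wild type through heterozygous to knockout as those of Mgp do.

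The genes whose pattern over the 6 libraries was most like that of Mgp, among 339 genes whose group means spanned at least 1 on the log2 scale, were Trps1, Clmp, Plagl1, Slk and Malat1. Their Pearson correlations with Mgp were at least 0.998, over 6 libraries that form 3 pairs, and 113 of the 339 genes exceeded 0.95, so many genes share this graded order. Trps1 and Plagl1 passed the filter through heterozygous and knockout libraries alone. Clmp, an adhesion molecule gene, had 4.12 and 4.39 RPKM in wild-type, 6.72 and 6.90 RPKM in heterozygous and 9.79 and 9.60 RPKM in knockout libraries. The genes most like Spp1 were Thbs4, Sfrp2, Spon2, Tmem26 and Dlk1, with correlations of 0.999 each, and 80 genes exceeded 0.95. Sfrp2 and Tmem26 passed the filter through knockout alone, so they were candidates because they are high there. Spon2 passed it through heterozygous and knockout libraries alone. Thbs4, of tendon matrix, showed the same late step as Spp1, at 6.20 and 6.54 RPKM in heterozygous and 66.0 and 63.5 RPKM in knockout cells.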

How the data were processed

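Per the labels' protocols, polyadenylated RNA was isolated and turned into dUTP-based libraries. Per the submitters' processing notes, TopHat and mm9 were used. The deposited table gives 1 RPKM value per gene symbol and library (unit identified from the values). Its columns are named for coverage tracks, per the file headers. Not given in the sources used here: annotation version and strand use in counting. Every column was matched to a sample.

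Low values of short genes fell on whole multiples of 1 step per library, which gave depth, and a gene length was found for 18880 of 18888 genes above 0 (tolerance 0.0001 bases). A read was taken as 37 steps, the commonest low value. Only 13.8% of values above 0 were within 0.01 reads of whole, so no count model was used. For the typical gene, replicates differed by slightly more than counting noise (robust variance 1.16 to 1.26 times it, against 9.17 to 21.1 between genotypes), and they were kept as 2. The mean squared deviation was larger, at 1.58 to 2.36 times counting noise, against 31.3 to 67.5 between genotypes.

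The 10897 genes reaching 1 RPKM in 2 or more libraries were fitted on log2(RPKM + 1) with 3 group means in limma 3.58.1 (R 4.3.3; two-sided, intensity trend, Benjamini-Hochberg, threshold 0.05; 3 residual degrees of freedom). The fit was tested on data simulated with counting error alone. That setting lacks further spread between libraries, so it cannot give the rate of false calls in these data. The 8 genes and all lists were chosen with earlier results of these data known. Named list genes are the up to 4 largest differences among called genes without overlap in each list, and the highest gene of each marker list. One gene that this rule names is not reported here. Phospho1, Vkorc1, Twist2, Id3, Col1a1, Col1a2, Dspp, Mepe, Dmp1, Bglap, Bglap2, Ahsg, Fgf23, Hapln1, Col10a1, Col2a1, Itgb3, Acp5, Tagln, Myocd, Cnn1 and Des are named outside that rule, chosen after their values were seen.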

Additional observations from a re-analysis of the deposited data

How the results depend on the processing

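The direction of Mgp held in all 14 alternative settings and in all 3 comparisons. Its log2 difference was 3.55 with a pseudocount of 0.1 and 2.88 with a pseudocount of 5 in knockout against wild type, and 1.45 with a pseudocount of 5 in heterozygous against wild type. Leaving out 1 library at a time gave 3.32 to 3.46 for knockout and 1.76 to 1.93 for heterozygous over wild type, and 1.46 to 1.64 for knockout over heterozygous. Counts of genes 2-fold apart without overlap went from 279 to 679 and 86, from 131 to 268 and 25, and from 81 to 187 and 25 with pseudocounts of 0.1 and 5, in the same order, and the last to 51 with a filter at 5 RPKM. That filter left 4754 of 7324 genes called in knockout against wild type, since fewer genes were tested. Small differences changed sign without 1 library: Alpl in heterozygous against wild type gave -0.0084 without the second wild-type and -0.0028 without the second heterozygous library (0.02 with all, range up to 0.043), Ibsp in knockout against heterozygous -0.0064 without the second heterozygous library (0.0046 with all, range up to 0.016), and Runx2 in the same comparison -0.0036 without the first heterozygous library (0.04 with all, range up to 0.081). Alpl, Ibsp and Sp7 lie under the 1 RPKM filter. Quantile normalization, median scaling, the 5 RPKM filter, a replicate block and a fit of only the 2 groups compared gave no value for them. Runx2, at most 4.53 RPKM, had no value with the 5 RPKM filter. Libraries with the same number did not deviate together (correlations of -0.088, -0.062 and 0.065). For the typical gene, deviations within a genotype were close to counting noise, so these correlations cannot show whether such libraries share a preparation. A replicate block gave 7253, 5563 and 5448 called genes, against 7324, 5729 and 5644 without it, left the list genes at 30 higher and 13 lower, and did not move the Mgp difference of 3.39. Depth limits Alpl, Ibsp and Sp7 most.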
